A study of Homo sapiens with 8 samples.

Results

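The 9 genes described here encode enzymes of aromatic amino acid breakdown and of amino group transfer: TAT, HPD, HGD, FAH, TDO2, GPT, GOT1, GOT2 and GLUD1. They were chosen by name, with earlier results of these data known, and all 9 were found among the 58735 genes of the deposited table. RNA came from HepG2, an established human hepatocellular carcinoma line grown in DMEM with fetal bovine serum. The 4 control libraries (named pLV_EGFP_NC, genotype given as WT) came from cells infected with a control lentivirus. The 4 DNMT3A libraries (named pLV_EGFP_DN) came from cells given a lentivirus for overexpression of DNMT3A, an enzyme that sets new methyl marks on DNA, so all 8 carried a lentiviral infection. The labels do not say whether the infected cells were clones or pools, or whether libraries of a group came from separate cultures. Each p-value is thus set by how far these libraries spread, and that spread may be technical only.

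Liver is the main site of tyrosine breakdown. TAT moves the amino group of tyrosine to a keto acid, HPD turns the product into homogentisate, HGD opens the ring of homogentisate, and FAH cleaves the last intermediate into fumarate and acetoacetate. Loss of HGD causes alkaptonuria and loss of FAH causes hereditary tyrosinaemia. TDO2 opens the ring of tryptophan and starts the kynurenine route, and TAT and TDO2 are textbook targets of glucocorticoids in hepatocytes. GPT (alanine aminotransferase) and the aspartate aminotransferases GOT1, in the cytosol, and GOT2, in mitochondria, are measured in blood as signs of liver injury. GLUD1 releases the amino group of glutamate as ammonia in mitochondria.

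DNMT3A methylates cytosines in CG pairs, so promoter windows of 3 members are shown to compare how many such pairs they hold. DNA methylation itself was not measured. Each window is the 250 bases before a RefSeq start (build GRCh38.p14), written 5′ to 3′ on the gene's strand with every CG in capitals. They were read at chr10:87094844-87095093 (minus strand) for GLUD1, chr15:80152539-80152788 (plus strand) for FAH and chr4:155903446-155903695 (plus strand) for TDO2.

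GLUD1: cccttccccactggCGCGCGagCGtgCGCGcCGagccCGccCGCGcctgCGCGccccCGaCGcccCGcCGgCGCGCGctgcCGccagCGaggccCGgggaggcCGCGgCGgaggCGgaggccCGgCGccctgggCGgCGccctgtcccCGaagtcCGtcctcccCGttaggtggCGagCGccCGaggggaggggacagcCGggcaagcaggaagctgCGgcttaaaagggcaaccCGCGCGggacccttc

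FAH: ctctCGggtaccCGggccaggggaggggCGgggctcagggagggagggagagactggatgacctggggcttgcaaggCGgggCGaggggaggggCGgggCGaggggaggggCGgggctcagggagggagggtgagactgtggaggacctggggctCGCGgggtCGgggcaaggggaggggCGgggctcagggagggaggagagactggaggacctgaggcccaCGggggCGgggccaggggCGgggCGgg

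TDO2: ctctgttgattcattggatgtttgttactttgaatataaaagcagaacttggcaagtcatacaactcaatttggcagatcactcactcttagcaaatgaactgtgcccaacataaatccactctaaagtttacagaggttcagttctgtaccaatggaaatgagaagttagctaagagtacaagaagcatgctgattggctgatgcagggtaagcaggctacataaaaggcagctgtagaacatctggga

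The GLUD1 window held 41 CG pairs, the FAH window 16 and the TDO2 window 0. CG reads the same on both strands. Of 34943 distinct windows of 250 bases in the RefSeq table, 93.9% held at least 1 CG, the median was 11, and 1.74% held as many as that of GLUD1 or more. The windows of 6 members were matched by symbol; TAT, HGD and GPT were not matched. GOT1 had 22 CG pairs and GOT2 had 18. FAH had a further start with 19. Of the HPD starts, the one inside the deposited HPD gene had 5 and the one outside it had 29. A count of CG letters is a description of the window and gives no methylation state.

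Each deposited value is an FPKM, a fragment count divided by gene length and by a total set for its library. Levels can therefore be set side by side between genes. In the controls GLUD1 was the most abundant member at 235 ± 5.73 FPKM (mean ± SD, n = 4, as for all group means). HPD (63.8 ± 4.38 FPKM) and GOT2 (63.2 ± 1.35 FPKM) followed, and their control libraries overlapped. HGD came next at 50.8 ± 1.99 FPKM, then GOT1 at 26.8 ± 0.958 FPKM, FAH at 7.84 ± 0.232 FPKM and GPT at 1.88 ± 0.405 FPKM. TAT stood at 0.669 ± 0.111 FPKM and TDO2 at 0.00574 ± 0.00664 FPKM. Apart from HPD and GOT2, the control libraries of neighbours in this order did not overlap. In the DNMT3A libraries GOT2 (61.8 ± 1.91 FPKM) stood above HPD (55.6 ± 5.74 FPKM), and no neighbours overlapped. Within tyrosine breakdown, TAT rested on 48 to 72 recovered reads per library and HPD on 1838 to 2574. GSTZ1, which acts between HGD and FAH, was at 0.626 to 0.918 FPKM in the controls and overlapped TAT.

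The length that the authors divided by equals all annotated exons of the gene for each of the 9 members. For FAH this is 7203 bases against 2152 in its GENCODE principal transcript. Scaled to principal transcripts, a choice made after the values were seen, FAH stood at 26.3 FPKM and GOT1 at 30.9 FPKM in the controls, and the order of the 9 was the same.

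**Figure D1:**
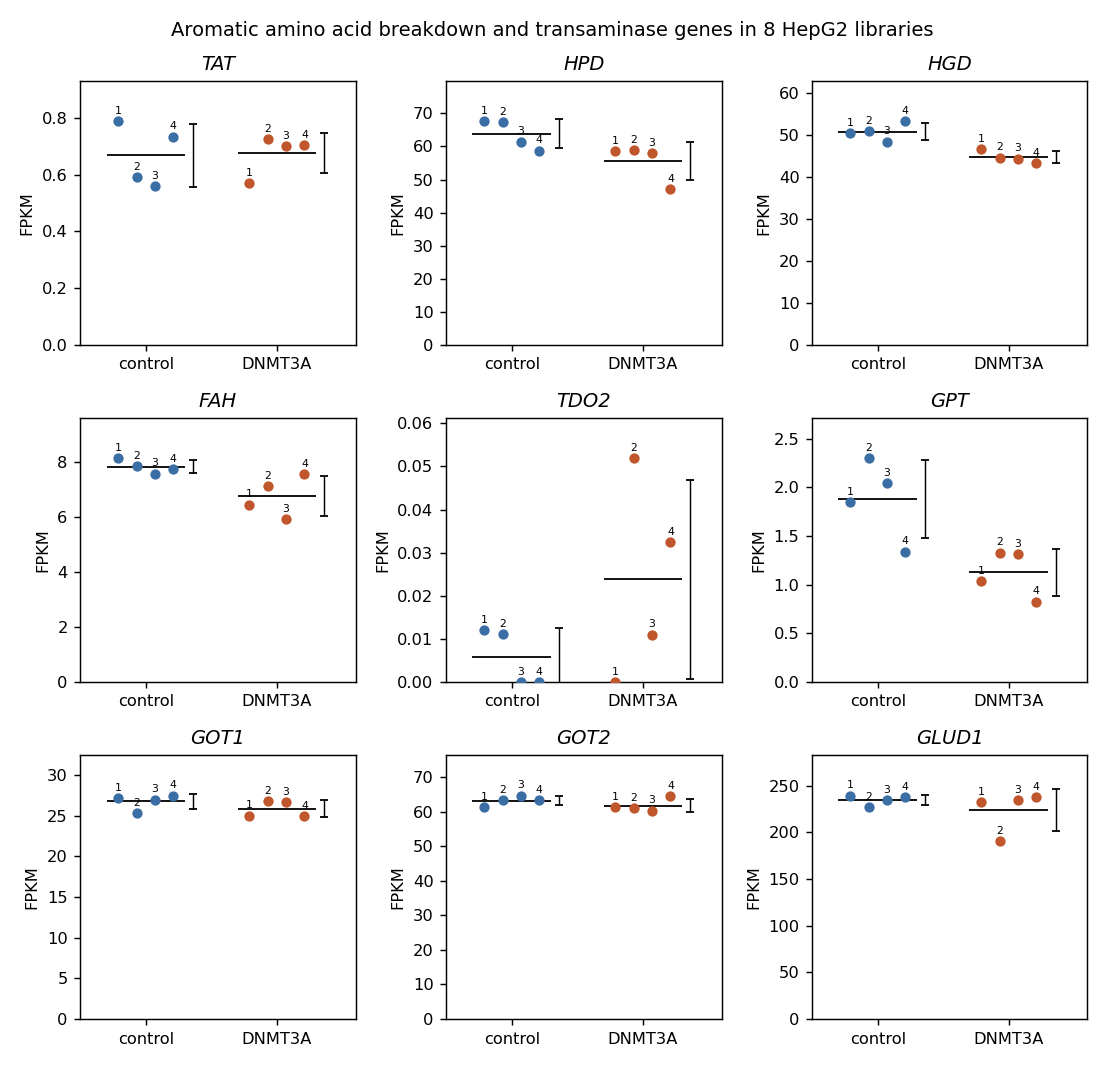
FPKM (vertical axis, from 0, own scale per gene) of the 9 genes in 4 control and 4 DNMT3A libraries; points are libraries with their number, horizontal lines are group means and bars are 1 SD. HGD lies lower in each DNMT3A library (43.4 to 46.7 FPKM) than in any control library (48.5 to 53.3 FPKM), while GOT1 and GOT2 overlap between groups.

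The libraries held 15911019 to 17677093 recovered reads, and 9.97% to 12.7% of these were mitochondrial. The library total that the FPKM values imply was 1.04 times the recovered reads in DNMT3A library 2 and 1.02 times in DNMT3A library 4. In the other libraries it was 0.994 to 1.01 times. A larger total makes every FPKM of a library smaller, and the part of this offset in the results was not tested. The overexpressed gene, DNMT3A, stood at 3.45 to 3.89 FPKM in controls against 7.26 to 10.2 FPKM in its own libraries. Of 8 hepatocyte and HepG2 markers, AFP rose from 369.9 ± 9.28 to 1143 ± 192 FPKM (log2 1.61, limma adjusted p = 4.8e-05) and TTR from 6.04 ± 1.24 to 17.1 ± 1.3 FPKM (log2 1.38, limma adjusted p = 8.7e-05). The other 6, among them ALB at 4903 to 6929 FPKM, did not pass. The 8 summed to 9133 to 9672 FPKM in controls and 8678 to 11361 FPKM with DNMT3A. Of 3 leukocyte markers, PTPRC was at 0 in every library and CD68 at most at 0.0289 FPKM, while LYZ rose from 234 ± 32.6 to 325 ± 13.9 FPKM (limma adjusted p = 0.00812). Of 4 fibroblast and stellate markers, COL1A1, COL3A1 and DCN reached at most 0.0253 FPKM and PDGFRB was at 0.342 to 0.754 FPKM. The 3 endothelial markers summed to 0.435 to 0.547 FPKM in controls and 0.565 to 0.679 FPKM with DNMT3A. Among them VWF was at 0.103 to 0.184 against 0.197 to 0.259 FPKM, with no overlap, PECAM1 at 0.285 to 0.425 FPKM and CDH5 at most at 0.0519 FPKM. The part of these markers in the results was not tested. DNMT3A libraries 2 and 4 lay farther from their group mean (median absolute deviation over genes 0.104 and 0.101 on the log2 scale) than the other libraries (0.0523 to 0.073). The test, limma on log2(FPKM + 1), took genes whose mean over the libraries reached 1 FPKM. On that scale the change of a low gene comes out smaller than on the FPKM scale. Of 11620 tested genes 20.6% passed an adjusted p of 0.05, 9.93% higher and 10.6% lower with DNMT3A. Higher genes made up 48.3% of the calls, against 51.8% with median-ratio scaling, 51.0% with quantile normalization and 56.5% with voom. Voom scaled each library by the recovered reads of its tested genes and not by the total behind the FPKM values.

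Of the 7 members tested, HGD and GPT fell and 0 rose, while the other 5 stayed outside the threshold. Both calls came close to the threshold and were lost when single libraries were left out. At an unadjusted p under 0.05 limma gave 4 lower and 0 higher members, against 18.4% lower and 16.6% higher among all tested genes. Voom on recovered reads called 1 member lower and 0 higher, against 10.1% lower and 13.2% higher of all. The median log2 fold change of the 7 was -0.18, against -0.01 over all tested genes. All 7 lay below 0, as did 52.4% of all tested genes; with quantile normalization 5 of the 7 did. The groups did not overlap for HGD, GPT and FAH, and for 25.1% of all tested genes (13.0% lower, 12.1% higher). In bulk RNA, less RNA per cell and fewer cells holding a transcript cannot be told apart.

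TAT, the entry enzyme of tyrosine breakdown, was at 0.79, 0.591, 0.561 and 0.735 FPKM in control libraries 1 to 4. In DNMT3A libraries 1 to 4 it was at 0.572, 0.727, 0.702 and 0.705 FPKM. The groups overlapped, and the lowest and highest values of all were both controls. TAT (hg38 chromosome 16, 71565660 to 71577130, minus strand) was below the level for the test across genes. Its log2 difference was 0.01 (two-sided exact permutation p = 0.943 over 70 assignments).

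HPD, which makes homogentisate, was at 67.6, 67.3, 61.5 and 58.8 FPKM in the controls, against 58.5, 58.9, 58.1 and 47.0 FPKM with DNMT3A. Only DNMT3A library 4 stood well below the lowest control, and DNMT3A library 2 lay just above it. The log2 fold change was -0.20 (95% confidence interval -0.39 to -0.01; limma adjusted p = 0.125), and without DNMT3A library 4 it was -0.12 (limma adjusted p = 0.206). The gene (chromosome 12, 121839527 to 121863596, minus strand) was not called under any setting tried.

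HGD, the ring-opening dioxygenase whose loss causes alkaptonuria, was at 50.6, 51.0, 48.5 and 53.3 FPKM in the controls. In the DNMT3A libraries it was at 46.7, 44.6, 44.4 and 43.4 FPKM. Every DNMT3A library was below every control library, and the mean fell by 11.9%. HGD (chromosome 3, 120628173 to 120682571, minus strand) thus fell by 0.18 on the log2 scale (SE 0.0511, limma adjusted p = 0.0355). Leaving out any single control, or library 3 or 4 of the DNMT3A group, ended the call (limma adjusted p = 0.0553 to 0.0917), as did quantile normalization (limma adjusted p = 0.168) and voom (limma adjusted p = 0.0646). With 2277 to 2800 reads per library, this was a small difference between tight groups.

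FAH, the last enzyme of the route, was at 8.15, 7.86, 7.6 and 7.77 FPKM in the controls, against 6.47, 7.14, 5.93 and 7.59 FPKM with DNMT3A. The groups did not overlap, but DNMT3A library 4 lay next to the lowest control, and the DNMT3A libraries spread more widely (coefficient of variation 10.8% against 2.96%). The log2 fold change was -0.19 (95% confidence interval -0.35 to -0.03; limma adjusted p = 0.0904). FAH (chromosome 15, 80152490 to 80186946, plus strand) passed the threshold without DNMT3A library 4 (limma adjusted p = 0.0361) and with array weights (limma adjusted p = 0.011).

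**Figure D2:**
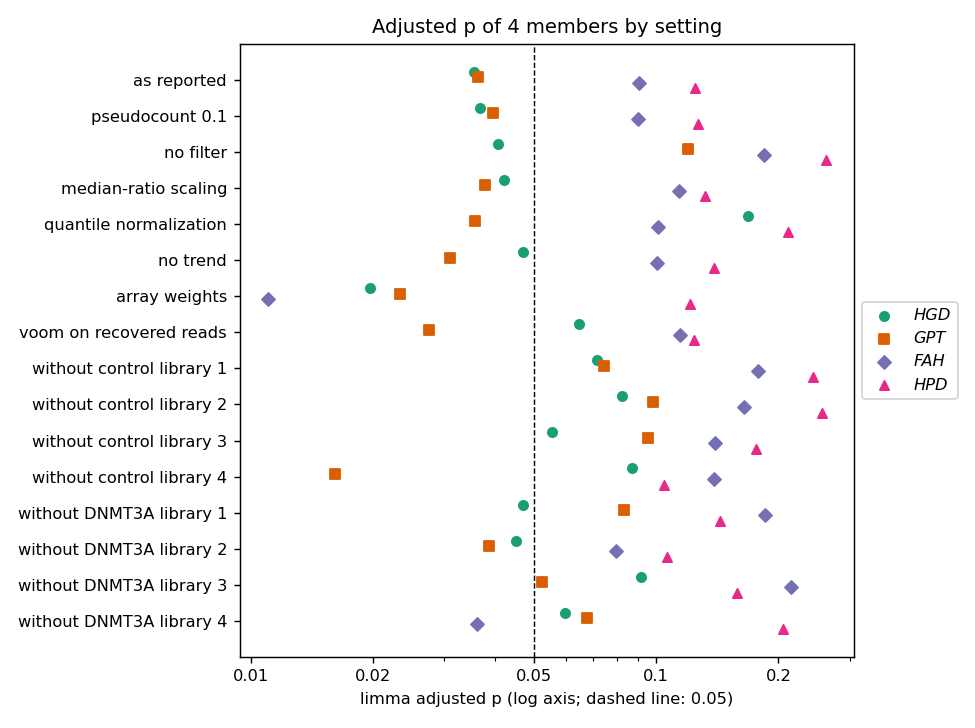
Limma adjusted p (horizontal log axis) of HGD, GPT, FAH and HPD under each setting except the replicate block (vertical axis). The dashed line marks 0.05. HGD and GPT cross the line under several settings, with HGD reaching 0.168 and GPT 0.119, FAH lies below it in 2 settings and HPD in none of those shown.

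TDO2, the entry enzyme of tryptophan breakdown, had 1, 1, 0 and 0 recovered reads in the controls and 0, 5, 1 and 3 in the DNMT3A libraries. A count of 0 allows up to 0.0324 to 0.036 FPKM in these libraries (3 reads, for counting error only). Its deposited values were 0 to 0.0519 FPKM, and no fold or change is read from them. TDO2 (chromosome 4, 155854738 to 155920406, plus strand) was not detectable above a few reads at this depth.

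GPT, alanine aminotransferase of the cytosol, was at 1.85, 2.3, 2.04 and 1.34 FPKM in the controls, against 1.04, 1.33, 1.32 and 0.825 FPKM with DNMT3A. Control library 4 and DNMT3A library 2 nearly met, and every other control was well above every DNMT3A library. The mean fell by 40.1% with DNMT3A, the largest relative difference among the 7 tested members. GPT thus fell by 0.43 on the log2 scale (SE 0.125, limma adjusted p = 0.0363), and by 0.69 with a pseudocount of 0.1 and 0.70 with voom. Leaving out control 1, 2 or 3, or library 1, 3 or 4 of the DNMT3A group, ended the call (limma adjusted p = 0.0523 to 0.0983), as did testing without a filter (limma adjusted p = 0.119). These values rest on 40 to 109 reads per library. GPT2, the mitochondrial counterpart, was at 48.7 ± 5.2 FPKM in the controls against 54.2 ± 2.46 FPKM with DNMT3A (log2 0.16, limma adjusted p = 0.176). It passed with quantile normalization (limma adjusted p = 0.0475) and with array weights (limma adjusted p = 0.0253).

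GOT1, the cytosolic aspartate aminotransferase, was at 27.2, 25.4, 27.0 and 27.5 FPKM in the controls, against 25.0, 26.8, 26.7 and 24.9 FPKM with DNMT3A. GOT2, its mitochondrial partner, was at 61.4, 63.3, 64.7 and 63.4 FPKM in the controls, against 61.3, 61.0, 60.3 and 64.6 FPKM with DNMT3A. Both overlapped between groups. The log2 fold change was -0.05 for GOT1 (95% confidence interval -0.16 to 0.07; limma adjusted p = 0.555) and -0.03 for GOT2 (-0.14 to 0.08; limma adjusted p = 0.67). The interval of each thus spans small differences in either direction. Within libraries, GOT2 was 2.36 ± 0.105 times GOT1 in the controls and 2.39 ± 0.158 times with DNMT3A. The log2 ratio differed by 0.02 (two-sided exact permutation p = 0.771, where 70 assignments allow no p below 0.0286). Leaving out control library 1 or DNMT3A library 4 turned that difference to -0.01 or -0.02. GOT1 lies on chromosome 10 (99396870 to 99431569, minus strand) and GOT2 on chromosome 16 (58707131 to 58734357, minus strand).

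GLUD1, mitochondrial glutamate dehydrogenase, was at 239.7, 227, 235 and 238 FPKM in the controls, against 233, 190.4, 235 and 238 FPKM with DNMT3A. DNMT3A library 2 alone lay below all the others. The log2 fold change was -0.07 (95% confidence interval -0.24 to 0.10; limma adjusted p = 0.533), and 0.00 without that library. GLUD1 (chromosome 10, 87050486 to 87094866, minus strand) shares 13.2% of its exon bases with SHLD2 on the opposite strand, which was at 19.8 to 22.3 FPKM. Whether strand was kept in the library or used in counting is not given in the sources used here, so reads there may be shared between the genes. GOT1 likewise shares 19.3% of its exon bases with AL391684.1, which was at 0.0824 to 0.371 FPKM. The GLUD1 copies GLUD2 and GLUD1P3 reached at most 1.26 and 2.77 FPKM.

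The log2 levels of HGD across libraries were most like those of SH3KBP1, ARSI and ZNF587B among 10037 other tested protein-coding genes, each with a Pearson r of 0.98 over the 8 libraries. Those of GPT were most like ALDH16A1, ZNF444 and COA4, also with r of 0.98 each. The 8 libraries form 2 groups, and any gene that separates them in the same way scores high, so these are descriptions. SH3KBP1 was at 8.57 FPKM in the controls and 5.82 FPKM with DNMT3A, and ALDH16A1 at 8.75 and 7.0 FPKM. ALDH16A1 and ZNF444 did not pass the threshold (limma adjusted p = 0.0503 and 0.101). ARSI, at 1.92 FPKM in the controls and 0.946 FPKM with DNMT3A, reached the level for testing through the controls.

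The 6 lists of related genes described from here on were chosen with earlier results of these data known. Over all tested genes 10.6% fell and 9.93% rose past the threshold. Among 8 other genes of phenylalanine and tyrosine breakdown, 4 were tested. Of these 0 rose and 0 fell with limma, 0 were lower or higher at an unadjusted p under 0.05, and voom called 0. The median log2 fold change was -0.05. QDPR and PCBD1 regenerate tetrahydrobiopterin, the cofactor of aromatic amino acid hydroxylases. QDPR was at 19.1 ± 1.44 FPKM in the controls against 18.1 ± 0.444 FPKM with DNMT3A (log2 -0.07, 95% confidence interval -0.21 to 0.07, limma adjusted p = 0.466). PCBD1 was at 38.9 ± 5.0 FPKM against 38.4 ± 4.29 FPKM (log2 -0.02), with a sign that turned with quantile normalization, voom and some single libraries left out. GSTZ1, the enzyme between HGD and FAH, was below the level for testing at 0.788 ± 0.121 FPKM in the controls and 0.907 ± 0.0619 FPKM with DNMT3A.

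On the kynurenine route after TDO2, 2 of 8 tested genes fell, 0 rose and 6 did not pass, with a median log2 of -0.22. As background, limma called 10.6% of all tested genes lower and 9.93% higher, and the middle log2 value across them was -0.01. Of 12 listed, 4 were below the level for testing. QPRT, which leads kynurenine products into NAD synthesis, was at 70.6, 73.7, 71.4 and 68.1 FPKM in the controls. It was at 52.6, 53.7, 56.5 and 56.6 FPKM in the DNMT3A libraries. The groups lay well apart, and QPRT fell by 0.37 on the log2 scale (limma adjusted p = 0.00164). KYNU, kynureninase, fell from 4.77 ± 0.0561 to 3.84 ± 0.276 FPKM (log2 -0.25, limma adjusted p = 0.0152). The QPRT and KYNU calls were kept in each of the 16 alternatives. AFMID (log2 0.07) and KYAT3 (log2 -0.23) did not pass; KYAT3 passed without DNMT3A library 4 (limma adjusted p = 0.0316). The count of genes that fell was 3 without control 1, or library 2 or 4 of the DNMT3A group, and 4 with array weights. TDO2's isoenzymes IDO1 and IDO2 were listed at 0 in every library, and KMO, the step before KYNU, reached at most 0.0317 FPKM.

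Among other aminotransferases and glutamate enzymes 5 of 10 tested genes fell, 0 rose and 5 did not pass, with a median log2 of -0.17. The shares over all tested genes were 10.6% lower and 9.93% higher. Below the level for testing were 6 of 16 listed. BCAT1, cytosolic branched-chain aminotransferase, was at 8.45, 7.26, 7.28 and 8.42 FPKM in the controls and at 5.27, 3.88, 4.22 and 5.03 FPKM with DNMT3A. It fell by 0.66 on the log2 scale (limma adjusted p = 0.00153). PSAT1, the aminotransferase of serine synthesis, fell from 228 ± 12.6 to 158 ± 13.6 FPKM (log2 -0.53, limma adjusted p = 0.0017). AGXT, which removes glyoxylate in peroxisomes, had a log2 of -0.36, mitochondrial BCAT2 -0.29 and ABAT, GABA transaminase, -0.26 (limma adjusted p = 0.0367, 0.0478 and 0.0457). BCAT2, at 1.36 FPKM in the controls and 0.927 FPKM with DNMT3A, reached the level for testing through the controls. Each of these last calls was lost without 6 or 7 of the 8 libraries in turn. The count that fell was 2 when control 1 or 4, or library 1 or 4 of the DNMT3A group, was left out, 3 without control 2 or 3 or DNMT3A library 2, 2 without a filter, 3 with median-ratio scaling and 3 with array weights. The count that rose was 1 with quantile normalization (GPT2) and 2 with array weights (GPT2 and GLUL). BCAT2 was also lost with median-ratio scaling, a pseudocount of 0.1 and array weights (limma adjusted p = 0.0512, 0.0597 and 0.101). ABAT was also lost with median-ratio scaling, quantile normalization and without the trend (limma adjusted p = 0.0509, 0.0679 and 0.0540). AGXT was also lost with array weights (limma adjusted p = 0.128). Without a filter AGXT, BCAT2 and ABAT were each lost (limma adjusted p = 0.115, 0.123 and 0.116). GLUL, glutamine synthetase, had a log2 of 0.13 (limma adjusted p = 0.134), and passed with array weights (limma adjusted p = 0.0233).

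In the malate-aspartate shuttle, which GOT1 and GOT2 serve, 2 of 6 tested genes fell, 1 rose and 3 did not pass. The median log2 was -0.08. Over all tested genes the shares were 10.6% lower and 9.93% higher. MDH2, mitochondrial malate dehydrogenase, was at 64.4, 64.2, 59.4 and 60.1 FPKM in the controls and at 50.0, 53.8, 52.6 and 44.1 FPKM with DNMT3A. MDH2 fell by 0.31 on the log2 scale (limma adjusted p = 0.0144), and the call was kept in each of the 16 alternatives. The aspartate-glutamate carrier SLC25A13 (log2 -0.17, limma adjusted p = 0.0415) fell, and its relative SLC25A12 (log2 0.34, limma adjusted p = 0.047) rose. SLC25A12 stood at 0.843 FPKM in the controls and passed the level for testing through the DNMT3A libraries. Each lost its call without 7 of the 8 libraries in turn (limma adjusted p = 0.0542 to 0.117), and the count that fell was 1 when any single control, or library 2, 3 or 4 of the DNMT3A group, was left out. SLC25A13 was also lost with quantile normalization, with voom and without the trend (limma adjusted p = 0.0922, 0.0816 and 0.0554). SLC25A12 was also lost with quantile normalization, with a pseudocount of 0.1 and without a filter (limma adjusted p = 0.0649, 0.0572 and 0.131). MDH1 (log2 -0.11) and SLC25A11 (log2 -0.06) did not pass.

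Of carriers that bring large neutral amino acids such as tyrosine, phenylalanine and tryptophan across the plasma membrane, 4 of 6 tested fell, 0 rose and 2 did not pass. The median log2 was -0.34, against -0.01 over all tested genes, of which 10.6% fell and 9.93% rose. Of 8 listed genes, 2 were below the level for testing. SLC7A5 (LAT1), the exchanger, was at 213 ± 9.28 FPKM in the controls, and at 170.3, 182, 155 and 141 FPKM in DNMT3A libraries 1 to 4. Its heavy chain partner SLC3A2 was at 64.2, 69.1, 63.9 and 59.8 FPKM in the controls and at 41.3, 45.9, 41.2 and 42.2 FPKM with DNMT3A. Neither gene had a DNMT3A library within the control range. SLC7A5 fell by 0.40 on the log2 scale (limma adjusted p = 0.00896), SLC3A2 by 0.58 (limma adjusted p = 0.000382) and the facilitative carrier SLC43A1 by 0.47 (limma adjusted p = 0.000639), from 36.5 ± 1.25 to 26.1 ± 1.25 FPKM. These 3 calls were kept in each of the 16 alternatives. SLC43A2 fell by 0.28 (limma adjusted p = 0.0223), and lost its call without control 1, 2 or 3, or library 1 or 3 of the DNMT3A group (limma adjusted p = 0.0531 to 0.0597). It was also lost without a filter (limma adjusted p = 0.0552). SLC7A6 (log2 0.28, limma adjusted p = 0.0776) and SLC16A10 (log2 0.13) did not pass. SLC7A6 was at 1.71 to 2.53 FPKM in the controls and 2.58 to 3.43 FPKM with DNMT3A, without overlap, and passed with voom (limma adjusted p = 0.0268).

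**Figure D3:**
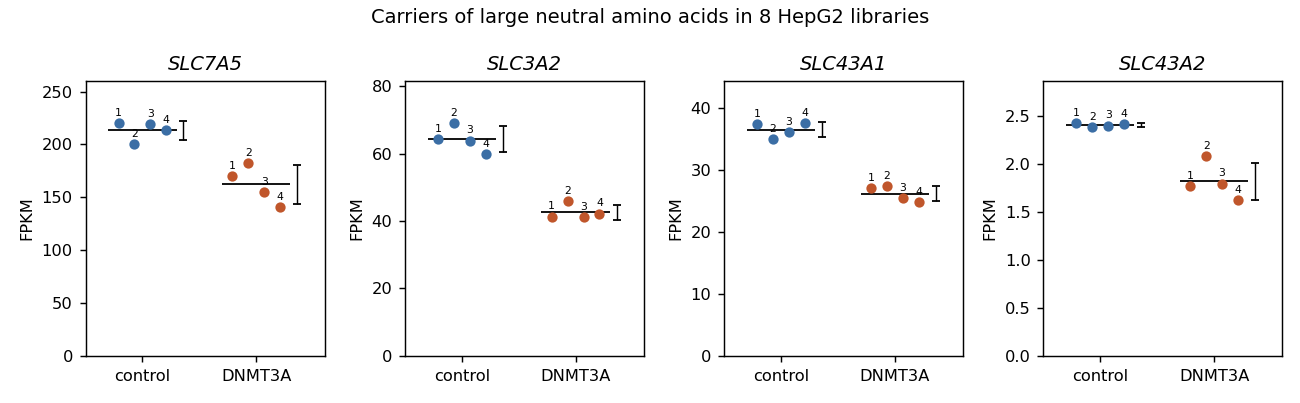
FPKM (vertical axis, from 0, own scale per gene) of 4 carriers of large neutral amino acids in 4 control and 4 DNMT3A libraries; points are libraries with their number, lines are group means and bars are 1 SD. These are the 4 carriers called lower, and their groups do not overlap, as for SLC3A2 at 59.8 to 69.1 FPKM against 41.2 to 45.9 FPKM. The groups did not overlap for 5 of 6 tested carriers and for 25.1% of all tested genes. The remaining carrier without overlap, SLC7A6, was higher with DNMT3A and is not shown.

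Of the glucocorticoid receptor and genes known to respond to it, 3 of 5 tested rose, 0 fell and 2 did not pass. Their median log2 was 0.27, against -0.01 over all tested genes, of which 9.93% rose and 10.6% fell. Below the level for testing were 3 of 8 listed. The phosphatase DUSP1 rose by 0.55 on the log2 scale (limma adjusted p = 0.00763), the repressor KLF9 by 0.52 (limma adjusted p = 0.0015) and the kinase SGK1 by 0.27 (limma adjusted p = 0.0429). The receptor NR3C1 (log2 -0.10) and its chaperone partner FKBP5 (log2 -0.11) did not pass. SGK1 lost its call without control 2, 3 or 4, or library 1, 3 or 4 of the DNMT3A group (limma adjusted p = 0.0529 to 0.114). It was also lost with quantile normalization and without a filter (limma adjusted p = 0.0515 and 0.117). In each of these cases 2 genes rose. Below the level for testing, PER1 was at 0.523 to 0.807 FPKM in the controls and 0.998 to 1.47 FPKM with DNMT3A. TSC22D3 was at 0.274 to 0.39 against 0.191 to 0.24 FPKM; it and PER1 were chosen after their values were seen. TAT, a textbook target of the receptor, overlapped between groups as given above.

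**Figure D4:**
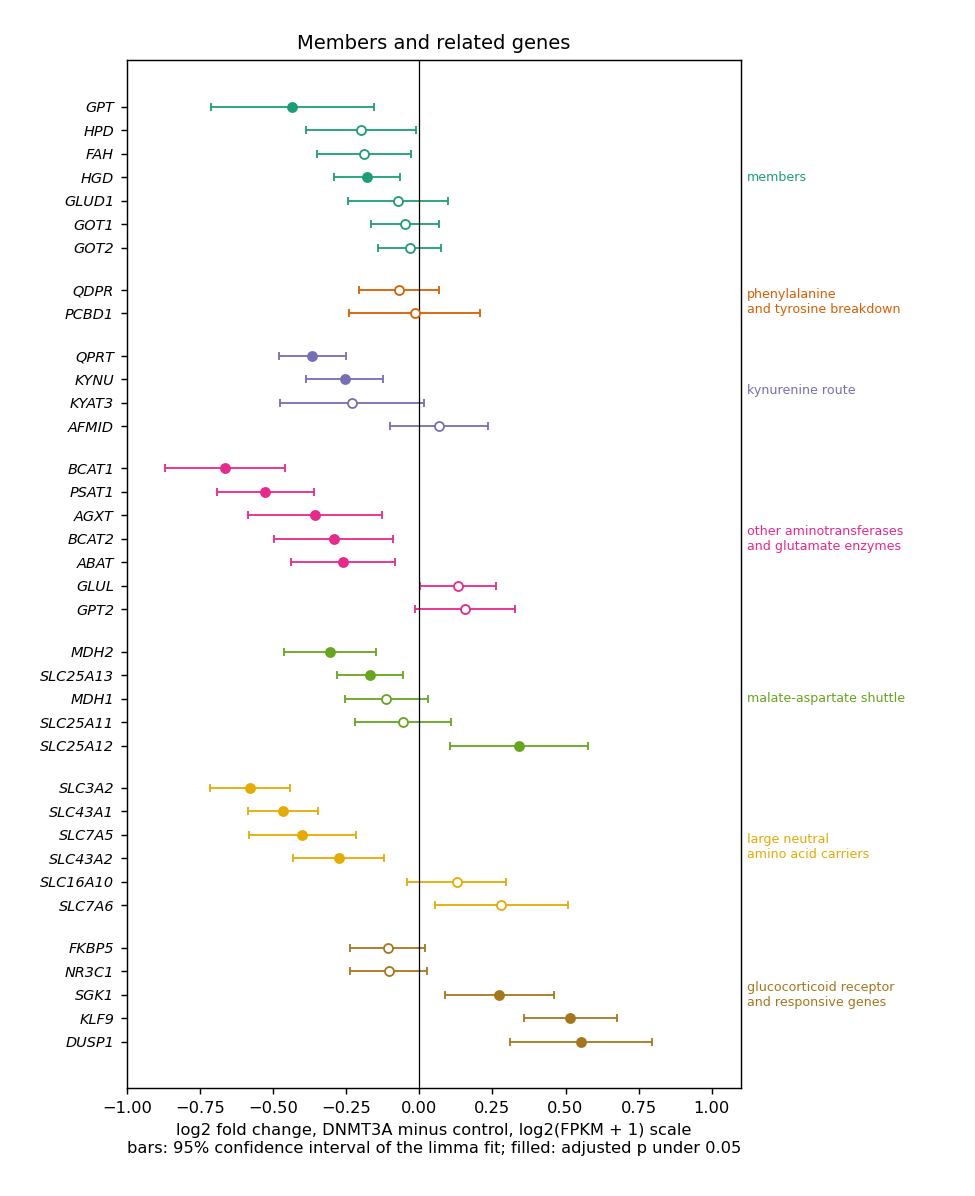
Log2 fold change (horizontal axis, DNMT3A minus control, log2(FPKM + 1) scale) of the 7 tested members and the named genes of 6 lists (vertical axis); bars are 95% confidence intervals of the limma fit and filled points passed an adjusted p of 0.05. Among the members GPT (-0.43) and HGD (-0.18) are filled, and 4 carriers lie between -0.58 and -0.28.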

How the data were processed

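Poly(A) RNA of 8 HepG2 libraries was profiled; sample titles gave each library its group and number. The submitters' processing notes name HISAT2 2.0.5 and hg38, and no counting program is given in the sources used here. The authors deposited FPKM values, per the file headers. Multiplied by gene length, every value above 0 (100%) came within 0.01 of a whole number of reads, so that reads could be recovered. Values were compared as log2(FPKM + 1) with limma 3.58.1 in R 4.3.3 (intensity trend, Benjamini-Hochberg adjustment, threshold 0.05) for the 11620 genes averaging 1 FPKM or more. Single values were compared with two-sided exact permutation tests over 70 assignments.

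On simulated data (11620 genes, 200 changed per run), limma found 14.6% of log2 changes of 0.3, then 64.6% at 0.5, then 98.3% at 1. False calls made up 5.2%. Changed genes were drawn only from those averaging over 200 reads, and the spread of each gene was assumed. GPT, at 40 to 109 reads, lay outside that range. Fewer genes were changed than were called here, so these rates are not the power of this comparison. Alternatives were a pseudocount of 0.1, array weights, voom on recovered reads, quantile normalization, median-ratio scaling, a fit without the trend, one without the filter, the replicate number as a block, and each library left out. Principal transcript lengths (GENCODE 29) were added after the data were seen. The members and the 6 lists were chosen with earlier results of these data known. A gene of a list is not reported here and was left out of its counts. Named from each list were genes past the threshold (at most 6) and the 2 other tested genes with the highest mean. For each called member the 3 genes with the highest Pearson r were named. Intervals and limits cover counting or fitted error only.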

Additional observations from a re-analysis of the deposited data

Results flagged for a closer look

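In 3 cases 1 library of a group of 4 stood apart from the other libraries of its group by more than Dixon's 95% limit for the gap over the range, a limit that chance passes in about 1 of 20 groups; 80 groups of values were examined. HPD was at 47.0 FPKM in DNMT3A library 4, against 58.1 FPKM in the nearest DNMT3A library. GLUD1 was at 190.4 FPKM in DNMT3A library 2, against 233 FPKM in the nearest. TAT was at 0.572 FPKM in DNMT3A library 1, against 0.702 FPKM in the nearest; this value rests on 54 reads.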

How the results depend on the processing

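Of 112 values of the 7 tested members under 16 alternatives, 91 kept direction and side of the threshold, 16 lost a call, 2 gained one and 3 changed sign; the sign changes were those of GOT2 (log2 0.031) and GLUD1 (log2 0.033) with quantile normalization and of GLUD1 without DNMT3A library 2. The count of members past the threshold was 2 as reported, 3 with array weights (FAH added), 1 without a filter, 1 with quantile normalization and 1 with voom. It was 0 to 2 when 1 library was left out, and 0 was reached without control 1, 2 or 3, or library 3 of the DNMT3A group. Over all genes 2389 were called, 3756 with array weights and 1491 to 2454 with 1 library left out. Left-out libraries gave log2 differences of -0.105 to 0.0027 for GLUD1, -0.024 to 0.042 for TAT, -0.022 to 0.043 for the GOT2 to GOT1 ratio, -0.086 to 0.068 for PCBD1 and -0.098 to 0.0090 for SLC25A11. PCBD1 was at 0.040 with quantile normalization and 0.0081 with voom. The cause of these changes was not tested, apart from fewer libraries or more genes tested where the setting itself makes it so.

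Same-numbered libraries did not deviate together: the correlation of their deviations was -0.08 to 0.16, 1 of 4 pairs was over 0.1, and 2 of 8 libraries correlated best with their own number. With the replicate number as a block 1881 genes and 1 member, GPT (limma adjusted p = 0.017), were called, against 0.0945 for HGD, and the GOT2 to GOT1 difference was 0.02 (exact p = 0.875). The block also ended the calls of AGXT, BCAT2, ABAT, SLC25A12, SLC25A13, SLC43A2 and SGK1, so that 2 other aminotransferases, 1 shuttle gene and 3 carriers fell and 2 glucocorticoid-responsive genes rose; it changed no other call of a named gene. The low counts of TDO2 (0 to 5 reads), GPT and TAT limit what can be seen of these genes.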
